A study of Mus musculus with 6 samples.

Results

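The Gm10800 group is a set of 10 predicted mouse transcripts made of satellite-like repeat sequence, Gm10800, Gm10801, Gm26870, Gm10715, Gm10717, Gm10718, Gm10720, Gm10721, Gm10722 and Gm11168. The members were matched by symbol, and 2 of the 10, Gm10800 and Gm26870, had a value among the 16894 genes analyzed here. The other 8 had no value, and only their annotated sequences were examined. The group was selected on the difference between control and senescent cells in these same libraries, so that difference is described below without a test.

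The cells were primary fibroadipogenic progenitors (FAPs), mesenchymal progenitors of skeletal muscle that can become fibroblasts or adipocytes. They were isolated from hindlimb muscle of male and female C57BL/6 mice of 3 to 6 months by magnetic sorting for cells that lacked CD45, CD31 and α7-integrin and carried SCA-1. Senescence was induced in 3 cultures by 20 μM etoposide, a topoisomerase II poison that breaks DNA, for 48 h, and these cells were then left in drug-free medium for 5 days, and 3 cultures were controls. All cells came from the same strain and were sorted by the same markers. Nothing in the labels says that the 3 cultures of a group came from separate animals, so the spread between them may be technical. RNA was measured by stranded poly(A) RNA sequencing.

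Satellite DNA is tandemly repeated sequence that forms the heterochromatin around centromeres, and in mouse the major satellite occupies the pericentromeric region of most chromosomes. It is packed with histone H3 methylated at lysine 9, with HP1 proteins and with methylated DNA, and its transcription in differentiated cells is normally low. Only a small amount of this sequence is placed in the reference genome, where short stretches of it were annotated as predicted genes, and reads from any copy elsewhere can align to those places. A value for such a gene is therefore a value for the repeat family as far as the aligner could place its reads, and it does not locate the transcribed copy.

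In the GENCODE M21 annotation of GRCm38 (the build also called mm10), Gm10800 is a 755-base gene at chr2:98666547-98667301 on the minus strand, annotated as protein coding, with 5 exons and a 660-base transcript. Gm26870 is a lincRNA gene of 38032 bases at chr9:3000282-3038313 on the minus strand with 3 transcripts, and it is the first annotated gene of chromosome 9. Of the 10 members, 8 are on chromosome 9 and 2 on chromosome 2, where Gm10801 lies 2463 bases from Gm10800 on the opposite strand. The 7 other members on chromosome 9 are on the plus strand and overlap Gm26870, which is antisense to all of them. Exactly 13 of 55450 annotated genes shared a 31-base word with a member, the 10 members themselves and Gm10719, Gm17535 and Gm21738. Of these 3 further genes only Gm21738 had a value here. It is annotated as protein coding at chr14:19415857-19418930 on the minus strand, and it is described beside the members because its reads cannot be taken as independent of theirs.

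The stretches of 234 bases printed here show the repeat that the 3 measured genes have in common, from GENCODE M21 transcripts of GRCm38. Capitals mark the longest run found in all 3, which is 66 bases long. Gm10800 (bases 427 to 660 of Gm10800-201) and Gm21738 (bases 114 to 347 of Gm21738-201) are given as transcribed, from the minus strand. For Gm26870 (bases 1 to 234 of Gm26870-201) the reverse complement is given, because its transcript holds the run on the other strand.
Gm10800: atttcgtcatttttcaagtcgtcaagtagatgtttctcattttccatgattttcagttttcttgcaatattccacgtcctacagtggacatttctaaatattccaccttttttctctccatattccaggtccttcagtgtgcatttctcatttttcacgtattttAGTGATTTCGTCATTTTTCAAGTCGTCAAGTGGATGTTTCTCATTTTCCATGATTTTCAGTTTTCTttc
Gm21738: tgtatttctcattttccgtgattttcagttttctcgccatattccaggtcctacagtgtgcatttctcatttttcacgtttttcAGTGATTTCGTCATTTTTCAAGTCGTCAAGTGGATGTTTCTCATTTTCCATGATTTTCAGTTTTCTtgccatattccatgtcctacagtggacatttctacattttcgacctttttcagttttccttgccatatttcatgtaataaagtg
Gm26870 reverse complement: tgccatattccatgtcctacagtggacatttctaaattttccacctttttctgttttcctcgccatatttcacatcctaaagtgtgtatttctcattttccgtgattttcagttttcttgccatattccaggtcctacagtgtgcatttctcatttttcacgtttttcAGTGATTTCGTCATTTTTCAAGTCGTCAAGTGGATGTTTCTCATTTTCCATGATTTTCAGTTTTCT

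The run was found in 6 annotated genes, all among the 13. It occurred 1 time each in Gm10800, Gm10718, Gm10720 and Gm10719 and 3 times in Gm21738, always as transcribed, and 3 times over the transcripts of Gm26870 as its reverse complement. Sequence shared beyond this run was extensive. Gm10800 aligned to the reverse complement of Gm26870-201 at 89.2% identity over 674 columns, whereas as transcribed the best local alignment covered only 23 columns. Gm10800 aligned to Gm21738 at 90.6% over 679 columns and Gm21738 to the reverse complement of Gm26870-201 at 88.2% over 739 columns.

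The orientation divided the 13 genes. Gm26870 shared 31-base words with 0 of the other 12 genes on the same strand and with 12 of 12 on the opposite strand. All 132 ordered pairs among those 12 genes shared words on the same strand and 0 shared words on the opposite strand. Gm10800 and Gm26870 are thus predicted transcripts of opposite strands of 1 repeat. The share of a gene's 31-base words that also occurred in any of the other 12 genes was 42.0% for Gm10800, 75.2% for Gm26870 and 43.6% for Gm21738, and reached 94.4% for Gm10720. With 50-base words the shares were 27.4%, 67.0% and 32.0% for the 3 measured genes.

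**Figure D1:**
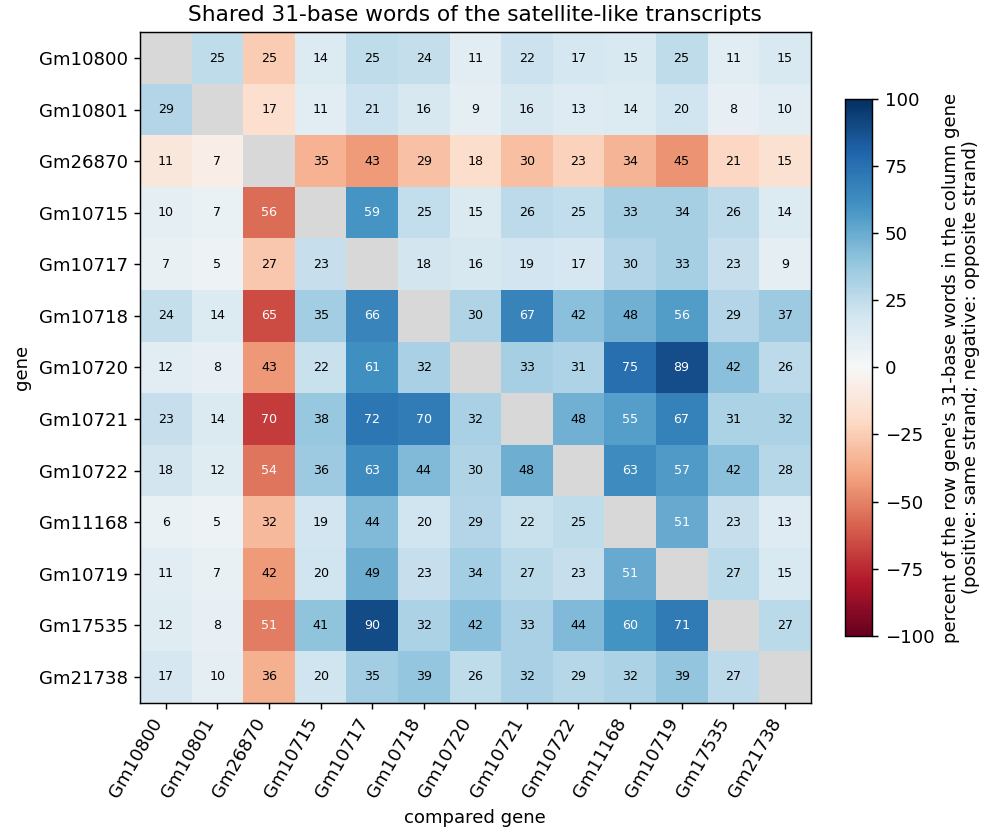
Percent of the 31-base words of each gene (rows) that also occur in each other gene (columns), over all annotated transcripts, with positive values for the same strand and negative values for the opposite strand. Every value in the row and column of Gm26870 is negative, and every other pair is positive.

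The repeat had a period of 234 bases, which is the unit length of the mouse major satellite. Gm26870-201 is 1170 bases long, or 5 such units, and among offsets up to 300 bases its identity with itself was highest at 234 bases, at 81.5%, against a median of 30.4% over all offsets. The first and second unit, printed here as transcribed to show the repetition, were identical at 228 of 234 positions (97.4%), and capitals mark the same run of 66 bases, which the second unit does not hold whole.
Gm26870 unit 1: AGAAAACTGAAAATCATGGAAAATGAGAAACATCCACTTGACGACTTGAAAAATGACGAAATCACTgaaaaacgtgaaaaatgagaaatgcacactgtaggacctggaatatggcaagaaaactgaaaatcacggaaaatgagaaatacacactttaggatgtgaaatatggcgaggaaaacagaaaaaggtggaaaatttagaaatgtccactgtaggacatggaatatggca
Gm26870 unit 2: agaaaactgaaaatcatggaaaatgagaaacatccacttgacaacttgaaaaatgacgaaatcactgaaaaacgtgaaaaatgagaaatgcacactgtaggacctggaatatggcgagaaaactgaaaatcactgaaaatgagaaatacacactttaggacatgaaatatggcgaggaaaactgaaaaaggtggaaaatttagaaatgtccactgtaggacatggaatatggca

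Within Gm26870 a weaker peak of 57.6% at an offset of 58 bases marked a shorter internal repeat, and at 703 and 937 bases, 1 base past 3 and 4 units, identity reached 97.6% and 97.0%. Gm21738 had its highest identity with itself up to an offset of 300 bases at 234 bases as well (62.4%). In Gm10800 the highest value in that range was 56.3% at 225 bases, with 43.0% at 234 bases. All 13 transcripts were AT-rich, with a GC content of 34.3% to 36.2%.

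**Figure D2:**
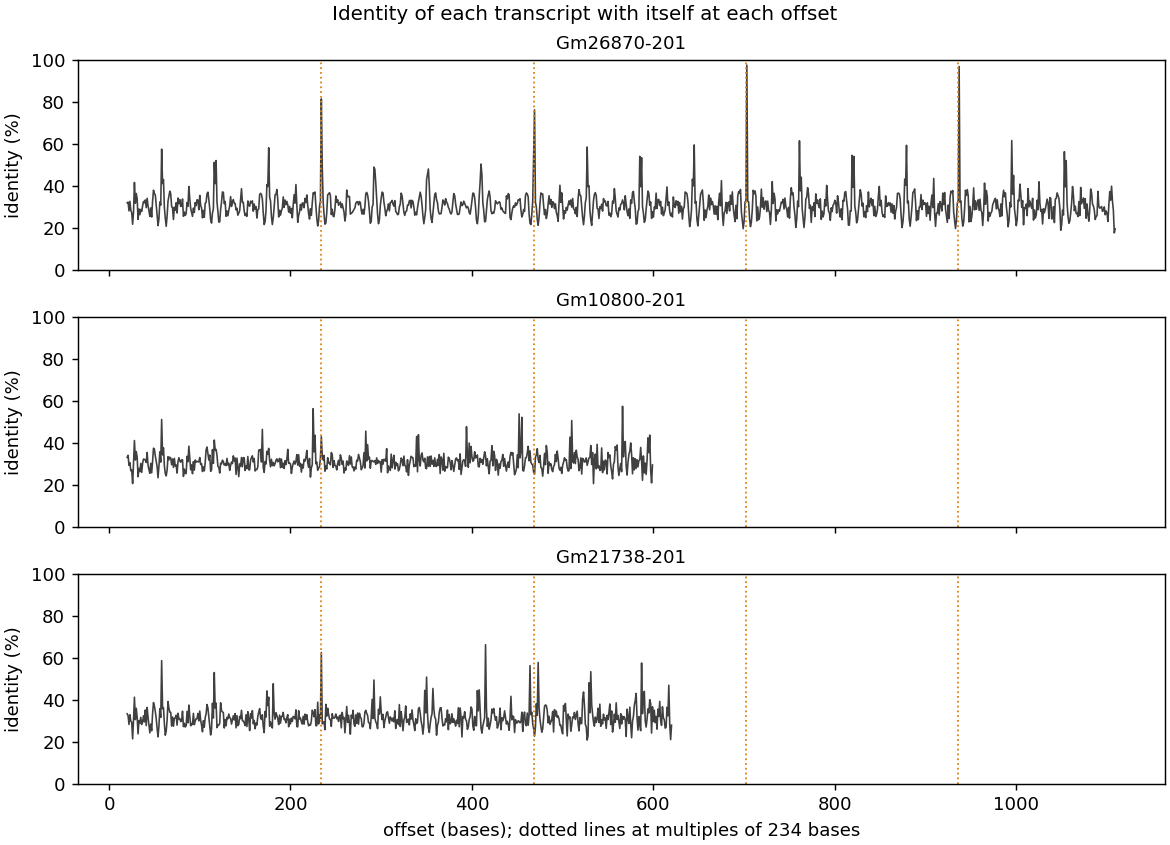
Percent of identical bases (vertical axis) when each transcript is compared with itself at each offset in bases (horizontal axis), with dotted lines at multiples of 234 bases. At 234 bases Gm26870-201 reaches 81.5%, Gm21738-201 62.4% and Gm10800-201 43.0%, and Gm26870 is higher still at 703 bases (97.6%) and 937 bases (97.0%).

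Genes received 41412179 to 59912520 reads per library, and 1 read was worth 0.0167 to 0.0225 CPM (reads relative to the effective library size). The control libraries held 48865531 to 59912520 reads and the senescent libraries 41412179 to 54975944. The labels were checked first. Cdkn1a, which encodes the cell cycle inhibitor p21, rose from 290 ± 40.5 to 1038 ± 21.5 CPM (SD, n = 3 per group; limma adjusted p = 1.00e-04), and Mki67, a marker of proliferating cells, fell from 158 ± 78.6 to 12.7 ± 5.49 CPM (limma adjusted p = 4.45e-04). Cdkn2a, which encodes p16, was at 85.5 ± 38.2 CPM in control and 90.0 ± 23.2 CPM in senescent cultures and did not pass the test (limma adjusted p = 0.765). Of the FAP markers 7 of 7 were measured, with summed levels of 16954 to 35595 CPM in control and 9927 to 14251 CPM in senescent libraries. Most of that sum was collagen, and Col1a1 fell (limma adjusted p = 0.00150) while Ly6a, Cd34 and Dcn rose (limma adjusted p = 0.0393, 6.99e-04 and 0.00465) and the other 3 did not pass the test.

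Gm10800 was detected in each senescent library and in no control library. It had 0, 0 and 0 reads in control replicates 1, 2 and 3, and 105, 162 and 38 reads in senescent replicates 1, 2 and 3. In CPM the senescent libraries were at 2.08, 2.71 and 0.855, with 95% exact Poisson intervals of 1.70 to 2.52, 2.31 to 3.16 and 0.605 to 1.17. The groups did not overlap, and senescent replicate 3 lay below the other two by more than counting error. The senescent mean was 1.88 ± 0.944 CPM (SD, n = 3). Pooled over the 3 senescent libraries the level was 1.97 CPM, or 100.7 times a floor of 3 reads over the whole control group (0.0196 CPM). Such folds are no lower bounds, since they leave out the error of the senescent reads. The 95% exact Poisson interval of 0 reads also reaches 3.69 reads, above this floor. Poisson and binomial intervals and this floor cover counting error only.

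Gm26870, the antisense member, followed the same division with a different order among the senescent cultures. It had 0 reads in each of the 3 control libraries and 43, 105 and 76 reads in senescent replicates 1, 2 and 3. These reads correspond to 0.854 (95% exact Poisson interval 0.618 to 1.15), 1.76 (1.44 to 2.13) and 1.71 (1.35 to 2.14) CPM. Here senescent replicate 1 was the lowest and replicates 2 and 3 were alike within counting error. The mean was 1.44 ± 0.508 CPM (SD, n = 3), and the level pooled over the senescent libraries, 1.45 CPM, was 73.9 times the same floor. In any single control library the 95% exact Poisson interval of 0 reads reaches 0.0662 to 0.0823 CPM (3.69 reads). These limits lie under the lowest senescent value of either member.

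Both members together had 0 reads in every control library and 148, 267 and 114 reads in senescent replicates 1, 2 and 3, or 2.94, 4.47 and 2.57 CPM (mean 3.32 ± 1.01, SD, n = 3). Pooled over the senescent libraries the summed level was 3.42 CPM, 174.6 times the control floor, and 202.4 times it when libraries were scaled by their totals alone. The sum varied less among the senescent cultures than Gm10800 did, with the highest library 1.74 times the lowest, against 3.17 times for Gm10800 and 2.06 times for Gm26870. On the log2(CPM + 0.5) scale the senescent minus control difference was 2.16 for Gm10800, 1.92 for Gm26870 and 2.90 for their sum. With controls at 0 these log2 differences depend on the pseudocount and are no bounds. As context and with no test read from it, 26.5% of the 14776 genes tested had all senescent libraries above all control libraries, as both members did. In bulk RNA, transcription in fewer cells and less RNA per cell cannot be told apart, so these levels do not say how many cells carried the transcripts.

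**Figure D3:**
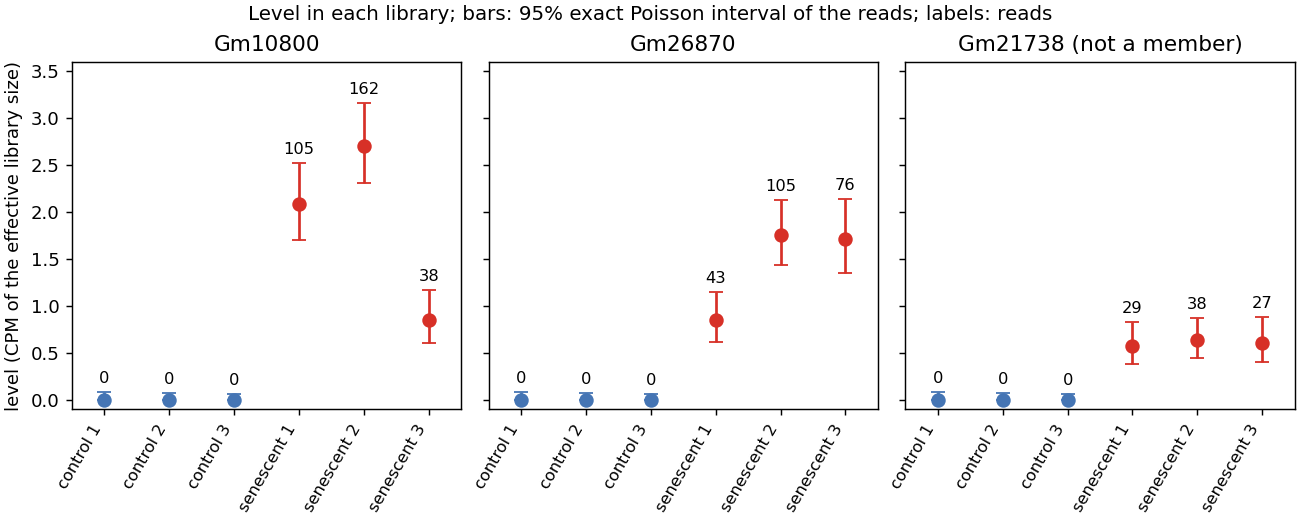
Level in CPM (vertical axis) of Gm10800, Gm26870 and the sequence-sharing gene Gm21738 in each of the 6 libraries (horizontal axis), with bars for 95% exact Poisson intervals and labels for reads. All 3 genes are at 0 in the 3 control libraries, and in the senescent libraries Gm10800 spans 0.855 to 2.71 CPM, Gm26870 0.854 to 1.76 CPM and Gm21738 0.576 to 0.636 CPM.

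The division of reads between both members was not constant across the senescent cultures. Gm10800 made up 71.0% of the reads of both members in senescent replicate 1 (95% exact Clopper-Pearson interval 62.9% to 78.1%), 60.7% in replicate 2 (54.5% to 66.6%) and 33.3% in replicate 3 (24.8% to 42.8%). The ratio of Gm10800 to Gm26870 reads was thus 2.44, 1.54 and 0.5. The interval of replicate 3 did not overlap those of the other two, whose intervals overlapped each other. The use of strand in counting is not given in the sources used here, so a share of 1 gene is a share of the reads assigned to it and cannot be read as a share of 1 strand. Per kilobase of GENCODE transcript, the senescent level was 2.85 ± 1.43 CPM for Gm10800 and 1.23 ± 0.435 CPM for Gm26870 (SD, n = 3). Their ranges overlapped, since Gm10800 in replicate 3 was at 1.30 and Gm26870 in replicate 2 at 1.502 CPM per kilobase.

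Gm21738, on chromosome 14, had 0 reads in each control library and 29, 38 and 27 reads in senescent replicates 1, 2 and 3. Its level of 0.576, 0.636 and 0.608 CPM (mean 0.606 ± 0.0300, SD, n = 3) varied little among senescent cultures, the highest being 1.10 times the lowest. Pooled over these libraries it was at 0.608 CPM, 31 times the control floor. Its level per kilobase was 0.890 ± 0.0440 CPM. All 3 senescent values of Gm21738 lay below every senescent value of both members in CPM, although it shares the repeat with both. Its exact Poisson intervals reached 0.827, 0.873 and 0.884 CPM in replicates 1, 2 and 3. They overlapped those of Gm26870 in replicate 1 (0.618 to 1.15) and Gm10800 in replicate 3 (0.605 to 1.17). The members' other senescent intervals lay above them. Per kilobase, Gm26870 in replicate 1, at 0.730 CPM, was below Gm21738 in every senescent replicate (0.8455, 0.9335 and 0.8921). The members' other values stayed above. The similar levels of Gm21738 and the wide spread of Gm10800 were measured on the same 3 cultures. With 27 to 38 reads per library, the intervals of Gm21738 leave room for larger differences between cultures.

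Few genes had no read in any control library. Of the 16894 genes, 56 (0.331%) had 0 reads in all 3 control libraries and at least 1 read in all 3 senescent libraries, and 0 genes were at 0 in all senescent libraries. Gm10800 and Gm26870 ranked first and second of these 56 by senescent reads, with 305 and 224 reads, and Gm21738 ranked 9 with 94. The genes next to the members were Cyp4a12b, a fatty acid hydroxylase of the cytochrome P450 family, with 159 reads, Grhl3, an epithelial transcription factor, with 121, and Chit1, a chitinase of macrophages, with 110. The other 53 genes had a median of 49 reads, from 33 to 159. Each gene analyzed reached 8 reads in 3 or more libraries, so a gene without control reads could enter it only through its senescent values, and the ranks of the members describe what chose them.

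The 53 other genes without control reads together were at 20.8, 20.4 and 19.2 CPM in senescent replicates 1, 2 and 3, so their sum was nearly level across the cultures. The ratio of the highest to the lowest senescent library had a median of 1.78 among them and reached 5.22. Of the 53, 2 exceeded the 3.17 of Gm10800, 17 exceeded the 2.06 of Gm26870 and 53 exceeded the 1.10 of Gm21738. These ratios include counting error, which is large at such read counts. The 3 satellite-like genes were the only ones of the 56 that reached 0.5 CPM in at least 3 libraries, and they passed that filter through the senescent group alone. Predicted genes with Gm numbers made up 10.7% of all genes listed and 5.36% of the 56, which are the 3 satellite-like genes. Of the 1139 Gm-numbered genes other than the members that were tested, 132 rose and 288 fell, with a median log2 difference of -0.19 beside -0.03 over all genes, and with division by library totals alone 191 rose and 155 fell.

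**Figure D4:**
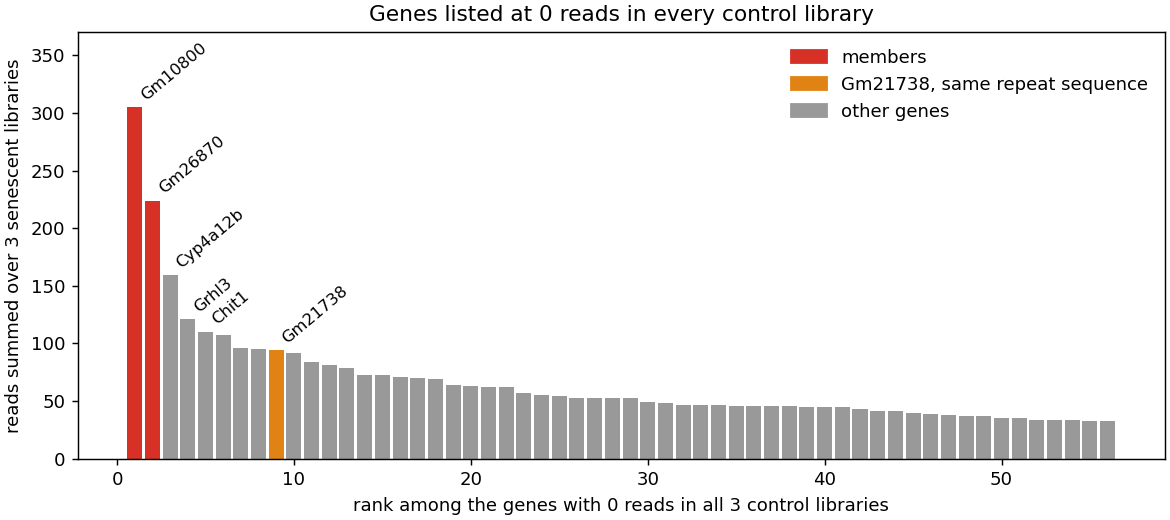
Reads summed over the 3 senescent libraries (vertical axis) for the 56 genes with 0 reads in every control library, in rank order (horizontal axis), with the members in red and Gm21738 in orange. Gm10800 (305 reads) and Gm26870 (224 reads) lead, and the other 53 genes lie between 33 and 159 reads.

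Other predicted transcripts that often collect reads from repeated or abundant RNA were examined from lists chosen by sequence type. Of the ribosomal RNA-like group, Gm26917 was at 23.9 ± 10.6 CPM in control and 28.6 ± 8.31 CPM in senescent libraries, Gm15564 at 4.53 ± 0.552 and 3.74 ± 1.71, and Lars2, whose gene holds an rRNA-like stretch, at 104 ± 18.1 and 97.7 ± 15.9 (SD, n = 3 per group). None of these 3 passed the test (limma adjusted p = 0.459, 0.377 and 0.686), and their groups overlapped. Of the transcripts of mitochondrial-like sequence, Gm28437, Gm28438, Gm28439, Gm28661, Gm29216 and Gm10925 were tested and 0 of 6 passed (unadjusted p 0.0592 to 0.925), with log2 differences of -0.12 to 0.44; Gm28439 passed narrowly with division by library totals (limma adjusted p = 0.0481). Gm10222 fell under the filter, with 0.272 ± 0.111 CPM in control and 0.627 ± 0.280 CPM in senescent libraries. Gm13152, a predicted gene that shared no 31-base word with the members, was at 1.49 ± 0.199 and 1.96 ± 0.399 CPM and did not pass the test (limma adjusted p = 0.212). The control libraries held reads for these other transcripts, some of which, such as Lars2 and Gm26917, were far more abundant than the members. They held 0 for Gm10800, Gm26870 and Gm21738. The members were chosen on this contrast, however, and all 3 genes entered only through their senescent reads. No conclusion is therefore drawn from this difference in control reads.

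The measured genes nearest to each locus were examined next. The nearest to Gm10800 were Gm13803, 717 kb before it, at 0.808 ± 0.509 CPM in control and 1.18 ± 0.358 CPM in senescent libraries (limma adjusted p = 0.287), and Gm13812, 1793 kb after it, which fell from 2.18 ± 0.267 to 1.33 ± 0.224 CPM (limma adjusted p = 0.0272). Next to Gm26870, the tRNA methyltransferase gene Alkbh8 began 297 kb after it and was at 12.7 ± 1.38 CPM in control and 10.3 ± 0.932 CPM in senescent libraries (limma adjusted p = 0.105). Around Gm21738, the ubiquitin-conjugating enzyme gene Ube2e2, 522 kb before it, was at 20.7 ± 1.53 and 22.6 ± 1.48 CPM (limma adjusted p = 0.315), and Gm2237, 145 kb after it, fell from 1.37 ± 0.147 to 0.784 ± 0.101 CPM (limma adjusted p = 0.0226). Of these 5 neighbors 0 rose and 2 fell, beside 21.8% of all tested genes called higher and 24.3% called lower. With division by library totals alone, Gm13812 and Gm2237 did not pass the test (limma adjusted p = 0.0782 and 0.0607) and Ube2e2 rose (limma adjusted p = 0.0207).

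Heterochromatin genes, a list wider than the genes known to act at major satellites, were read from the fit over all genes. Across all genes tested 3218 rose and 3592 fell, and without senescent replicate 2, which leaves 5 libraries, 2130 rose. Of 50 heterochromatin genes tested 2 rose, 27 fell and 21 did not pass the test, with a median log2 difference of -0.36. By role, 6 of 8 H3K9 methyltransferases and cofactors fell, 3 of 7 HP1 proteins and other readers fell and 1 rose, 3 of 7 genes of DNA methylation fell, 5 of 9 remodelers and histone chaperones fell and 1 rose, 3 of 5 deacetylases fell, 6 of 9 architectural and lamina genes fell and 1 of 3 H4K20 methyltransferases fell. Pax3 and Pax9, transcription factors known to bind major satellites, did not pass the test. When libraries were divided by their totals alone, which moved the median of all genes from -0.03 to 0.17, 8 of the 50 rose and 22 fell.

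Suv39h1, which encodes the methyltransferase that trimethylates H3K9 at pericentromeres, was at 31.3, 39.4 and 30.8 CPM in control and 14.7, 12.6 and 12.1 CPM in senescent replicates 1, 2 and 3. Every senescent library was below every control library (log2 difference -1.33, SE 0.13, limma adjusted p = 3.63e-04). Its paralog Suv39h2 fell from 3.30 ± 1.23 to 0.971 ± 0.177 CPM (SD, n = 3, limma adjusted p = 0.00371). Cbx5, which encodes HP1α, a reader of that mark, was at 117, 170 and 116 CPM in control and 88.8, 81.2 and 83.5 CPM in senescent replicates 1, 2 and 3 (log2 difference -0.64, SE 0.15, limma adjusted p = 0.00991). Dnmt1, the maintenance DNA methyltransferase, fell from 100 ± 17.3 to 37.3 ± 3.02 CPM (limma adjusted p = 3.31e-04). Hells, a remodeler needed for methylation of satellite DNA, fell from 17.3 ± 6.02 to 4.14 ± 0.874 CPM (limma adjusted p = 0.00101), and its partner Cdca7 from 7.87 ± 0.684 to 1.40 ± 0.322 CPM (limma adjusted p = 1.97e-04).

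Lmnb1, which encodes the lamin B1 of the nuclear lamina, was at 51.5, 71.0 and 52.5 CPM in control and 12.95, 12.8 and 11.7 CPM in senescent replicates 1, 2 and 3 (log2 difference -2.16, SE 0.13, limma adjusted p = 1.13e-04). Lbr, the lamin B receptor that tethers heterochromatin to the nuclear envelope, fell from 50.9 ± 3.97 to 15.6 ± 1.19 CPM (limma adjusted p = 9.93e-05). The 2 genes that rose were Fam208a, a subunit of the HUSH silencing complex, from 20.2 ± 1.86 to 27.8 ± 2.05 CPM (limma adjusted p = 0.0102), and Morc3, a chromatin ATPase, from 34.4 ± 0.823 to 43.5 ± 3.91 CPM (limma adjusted p = 0.0170). The architectural gene Hmga1, next by p among those with a positive difference, did not pass the test (log2 difference 0.56, limma adjusted p = 0.0628), but did in the paired fit with the replicate number as a block (limma adjusted p = 0.0239). The count of 2 became 1 without control replicate 3, without senescent replicate 2 or without senescent replicate 3. The lower calls of Suv39h1, Suv39h2, Cbx5, Dnmt1, Hells, Cdca7, Lmnb1 and Lbr kept their direction and passed the test also with division by library totals, Cbx5 narrowly (limma adjusted p = 0.0487). Mki67, the marker of dividing cells, fell in the same libraries. Its part in these differences was not tested, nor was any link between these genes and the members.

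**Figure D5:**
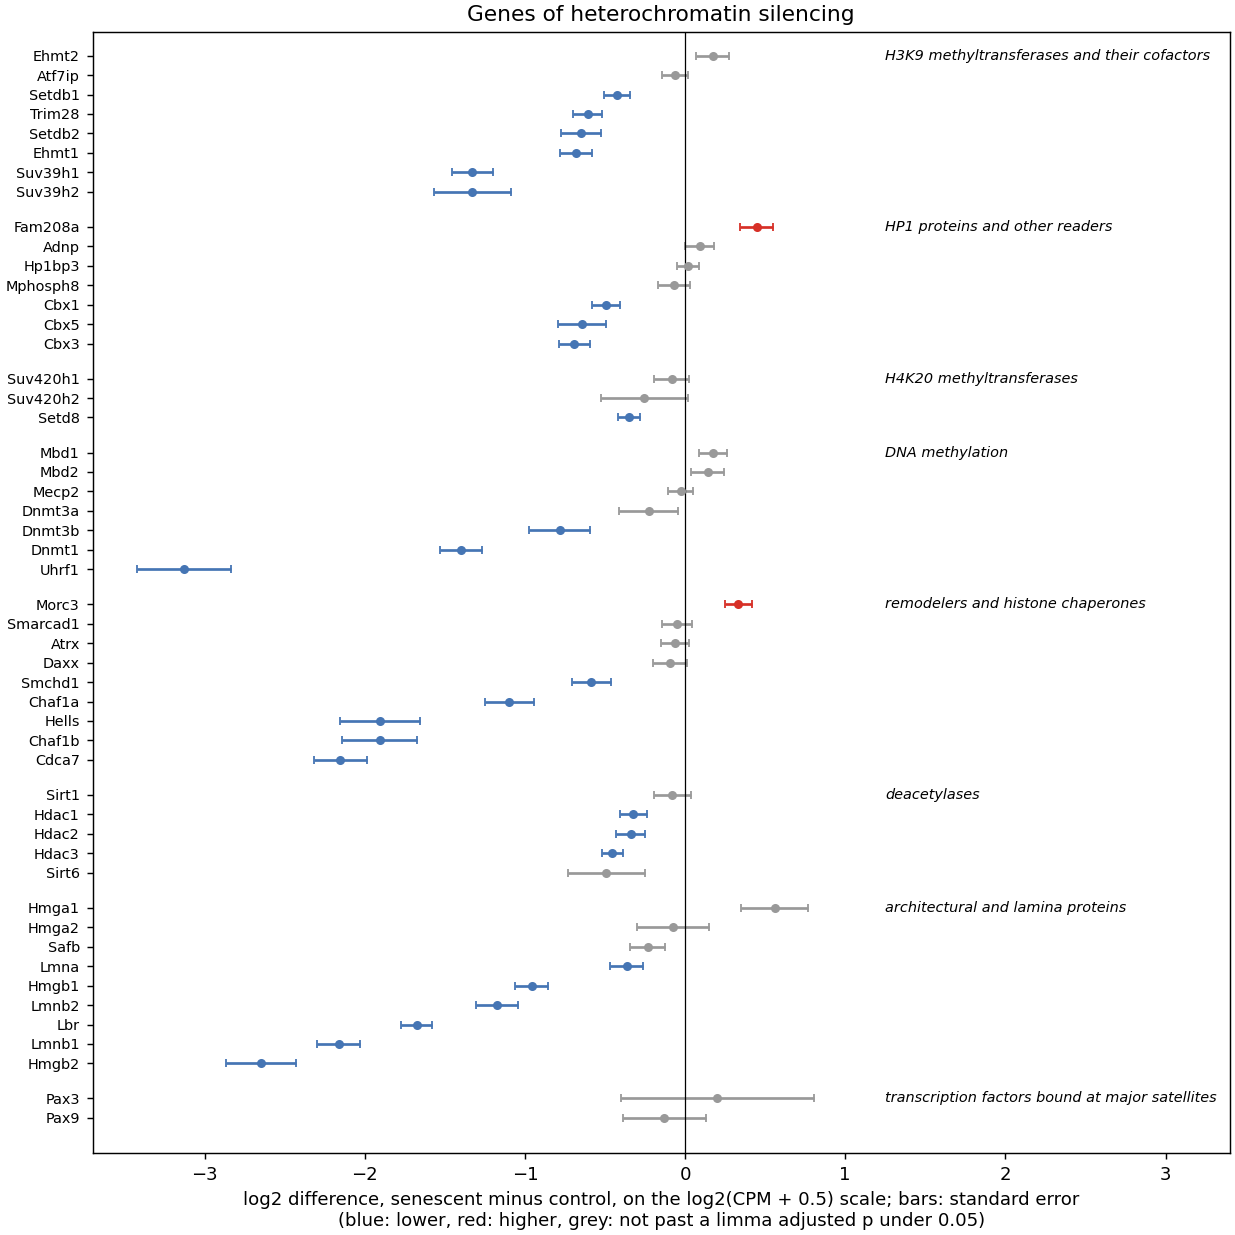
Senescent minus control difference on the log2(CPM + 0.5) scale (horizontal axis, with standard errors) for the 50 tested heterochromatin genes, grouped by role (vertical axis), blue where lower, red where higher and grey where the limma adjusted p was not under 0.05. Of the 50 genes 27 are blue and 2 red; scaling by library totals alone gives 22 lower and 8 higher.

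Genes of centromeric chromatin, the region next to the major satellites, fell in 6 of 9 cases and rose in 0. Over all genes tested, 24.3% were called lower and 21.8% higher. Hjurp, the chaperone that deposits the centromeric histone, fell from 197 ± 15.3 to 68.3 ± 7.77 CPM (limma adjusted p = 1.31e-04), and Cenpn, which binds the centromeric nucleosome, from 9.86 ± 3.72 to 2.32 ± 0.426 CPM (limma adjusted p = 0.00122). Among genes of nuclear RNA decay, which degrades many noncoding transcripts, 10 of 18 fell and 0 rose. The 18 include Dicer1, an enzyme that is not part of the exosome. Dis3, a catalytic subunit of the exosome, fell from 43.6 ± 6.44 to 23.4 ± 0.205 CPM (limma adjusted p = 9.33e-04), its core subunit Exosc2 from 29.7 ± 2.43 to 17.4 ± 1.83 CPM (limma adjusted p = 0.00153), and Dicer1, which cuts double-stranded RNA, from 78.9 ± 7.001 to 53.5 ± 3.44 CPM (limma adjusted p = 0.00251). The direction over this second list depended on the scaling, since 4 rose and 5 fell with division by library totals. In a paired fit, with the replicate number as a block, 2 rose and 12 fell. Dis3, Exosc2 and Dicer1 fell in all of these fits, as did Hjurp and Cenpn.

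Markers of other cells also differed between the groups. Of 6 leukocyte markers 4 were measured and 4 of 4 rose, beside 21.8% of all genes tested. Their summed level was 3.91 to 7.61 CPM in control and 18.3 to 25.4 CPM in senescent libraries. Ptprc and Adgre1, the defining markers CD45 and F4/80, were looked up and had no value among the genes analyzed here. Endothelial markers summed to 19.2 to 39.5 CPM in control and 23.8 to 31.2 CPM in senescent libraries, mostly from Tek. Of the 4 tested Pecam1 and Vwf rose, from 0.706 ± 0.289 to 1.70 ± 0.152 CPM and from 1.08 ± 0.170 to 1.99 ± 0.448 CPM (SD, n = 3, limma adjusted p = 0.00897 and 0.0241), and Kdr fell from 4.05 ± 0.686 to 2.21 ± 0.282 CPM (limma adjusted p = 0.00989). Of 6 muscle lineage markers the 2 measured, Des and Itga7, summed to 14.3 to 19.3 CPM and 23.4 to 30.2 CPM, and Itga7 rose. The part of such cells in the levels of Gm10800 and Gm26870 was not tested.

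The genes whose pattern over the 6 libraries was most like the summed level of the members were Adgb (Pearson r = 0.999), Tnxb (0.997), Hdac11 (0.996), Dnah6 (0.996) and Atat1 (0.996), as a description over 6 libraries that fall into 2 groups. Adgb, a globin-related gene, was at 0.312, 0.361 and 0.359 CPM in control and 1.37, 1.64 and 1.28 CPM in senescent replicates 1, 2 and 3, so it had the order of the members' sum among senescent cultures. Tnxb, a matrix glycoprotein gene, was at 2.99 to 4.003 CPM in control and at 28.8, 45.8 and 30.2 CPM in senescent replicates 1, 2 and 3, again highest in replicate 2. Dnah6, a dynein heavy chain gene, was at 0 to 0.0190 CPM in control and 0.655 to 0.837 CPM in senescent libraries. Such likeness was common where 2 groups stood apart, since 66 of 14774 genes had an r above 0.99 and 2079 had one above 0.9.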

How the data were processed

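Libraries were grouped and numbered by their labels. The authors counted reads per gene, scaled the counts with edgeR (3.10, R 3.6.0) and deposited the signal as CPM, here relative to effective library sizes. The submitters' processing notes name mm10; the aligner, counter, annotation and use of strand are not given in the sources used here. All values were whole multiples of 1 read, within 0.05 or, for the most abundant genes, within a tolerance that grew with the count. Reads were so recovered for 100% of values, though for those genes the check is weak. The line naming no gene held 0.00409% to 0.00699% of reads and was left out. The plan assumed CPM, and its test was kept.

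The members and lists were chosen with earlier results of these data known. The 14776 genes that reached 0.5 CPM in 3 or more libraries were tested with limma 3.58.1 (R 4.3.3) on log2(CPM + 0.5), two-sided, with Benjamini-Hochberg adjustment over all of them and an adjusted p under 0.05. Replicates differed by far more than sampling noise (chi-square per gene 14.9 to 149), so no library was a mere resampling of the reads of another. Separate preparations of 1 culture could also exceed that noise, so technical repeats are not excluded. p-values measure only the spread between these samples. Same-numbered cultures deviated together (correlations 0.537, 0.308 and 0.207), beside -0.357 to 0.153 for differently numbered cultures. The numbers were therefore taken to pair them, though for replicate 3 only weakly. The main fit had no such pairing, and a fit with a replicate block was an alternative. The other alternatives were pseudocounts of 0.1 and 1, no filter, a filter at 2 CPM, library totals or median-of-ratios factors (DESeq2 1.42.0), leaving out each library, and edgeR 4.0.16 on recovered reads. The code was tested on simulated data. Intervals were exact, from scipy 1.17.1.

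Sequences, positions and biotypes came from GENCODE M21 (GRCm38), in which 15973 of 16894 symbols were found; local alignments used Biopython 1.88. Named genes were all members, 3 checks of the labels, the 3 with the smallest p in a list or direction, 6 fixed heterochromatin genes, all genes of the ribosomal, mitochondrial and satellite-like lists, the nearest measured neighbors and the 5 most like the members. A result for 1 gene chosen by these criteria is not reported here. Cyp4a12b, Grhl3, Chit1, Pax3, Pax9 and the cell type markers given singly were named after their values were seen.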

Additional observations from a re-analysis of the deposited data

How the results depend on the processing

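With 0 control reads the direction of the members was fixed under every setting. The size on the log2 scale was set by the offset. For Gm10800 the log2 difference was 4.17 with a pseudocount of 0.1, 1.47 with a pseudocount of 1 and 9.62 in edgeR, and for Gm26870 it was 3.88, 1.26 and 9.22, none of which is a bound. Leaving out each library gave 1.90 to 2.53 for Gm10800, 1.79 to 2.16 for Gm26870 and 2.70 to 3.05 for their sum. A filter at 2 CPM removed both members. Division by library totals called 5056 genes higher and 1933 lower, and 8 heterochromatin genes higher. Leaving out each library gave 2130 to 3405 genes higher, 2416 to 3875 lower, and 1 to 3 heterochromatin genes higher with 24 to 28 lower. In the paired fit, with the replicate block, 3576 genes were higher and 3947 lower, and 3 heterochromatin genes were higher and 28 lower, and among the non-member genes whose calls are given above it changed that of Hmga1 only. A count of 0 over the control group says that the transcripts were not detectable at this depth, since it allows up to 3 reads. The assignment of reads between copies of the repeat, between strands and between Gm10800, Gm26870 and Gm21738 was fixed before deposition and could not be varied.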
